A study of Mus musculus with 14 samples.

Results

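The proteasome genes examined here are the protein-coding rows of the deposited counts whose symbol starts with Psma, Psmb, Psmc, Psmd, Psme, Psmf or Psmg followed by a number, without the immunoproteasome genes Psmb8 and Psmb9. This rule uses names only and found 45 of the 17927 genes of the table. Of these, 44 encode proteasome subunits, assembly chaperones or regulators. The last, Psmc3ip, matched by its name alone and encodes a protein of meiotic recombination, so it is counted among the 45 but described apart. No row was found for Psma8 or Psmb11, which are not analysed here. The 45 genes lie on 16 chromosomes, and all of them were found by identifier in the GENCODE M21 annotation of GRCm38.

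RNA-SEQ of whole brain was carried out on 7 WT and 7 Capn15 KO mice at postnatal day 2 (P2), of both sexes and untreated. The methods describe a Capn15(lacZ-Neo) line made from C57BL/6J mice. Column names of the counts assign the brains to 6 litters, A to F, of which litter B gave 4 libraries and each other litter gave 1 WT and 1 Capn15 KO library. There were 2 female and 5 male WT brains, against 4 female and 3 male Capn15 KO brains. Strain background, age and tissue were common to both groups, and the comparison asks whether loss of this calpain, an intracellular protease, altered the abundance of proteasome mRNAs.

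The labels give neurons as the cell type, but markers of astrocytes and radial glia, the oligodendrocyte lineage, microglia, endothelium, red blood cells, choroid plexus and meninges were all above 0 in every library, as were the 7 neuronal markers, so the values describe whole brain. In such bulk tissue, fewer cells of a type and less RNA per cell cannot be told apart. Total counts lay between 39937477 and 57422382 per WT library and between 37620954 and 70910163 per Capn15 KO library. Capn15 was at 24.98 to 27.3 CPM (counts in a library of 1000000 counts, scaled with TMM factors) in WT replicates 1 to 6 and at 12.2 to 14.5 CPM in Capn15 KO replicates 1 to 6. Litter F went against its labels, with Capn15 at 18.7 CPM in the library labelled WT replicate 7 and at 20.2 CPM in that labelled KO replicate 7. Genotype directions below therefore rest on the labels, and no call on the proteasome genes differed when litter F was left out.

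The proteasome degrades proteins tagged with ubiquitin. Its 20S core is a barrel of alpha rings, which gate the entrance, around beta rings, which hold the proteolytic sites. The 19S particle caps the barrel. The base of this cap contains a ring of ATPases that unfold substrates and pull them in, while the lid removes ubiquitin. Core and cap together form the 26S proteasome. Other activators can replace the cap, and dedicated chaperones assemble each part. In neurons this system is known for its part in synapse formation and in the removal of damaged proteins.

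In P2 brain the 26S subunits were among the more abundant mRNAs. Levels between genes are given as CPM per kb of the principal transcript in GENCODE M21, with SD over the 14 libraries. The 31 subunits of the 26S particle had a median of 83.0 CPM per kb, against 5.96 CPM per kb for the 17909 genes with an annotated length, and 95.9% of these genes lay below the subunits' median. Within the particle, mRNA levels per kb spanned 14.6-fold, from 14.1 to 206 CPM per kb.

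**Figure D1:**
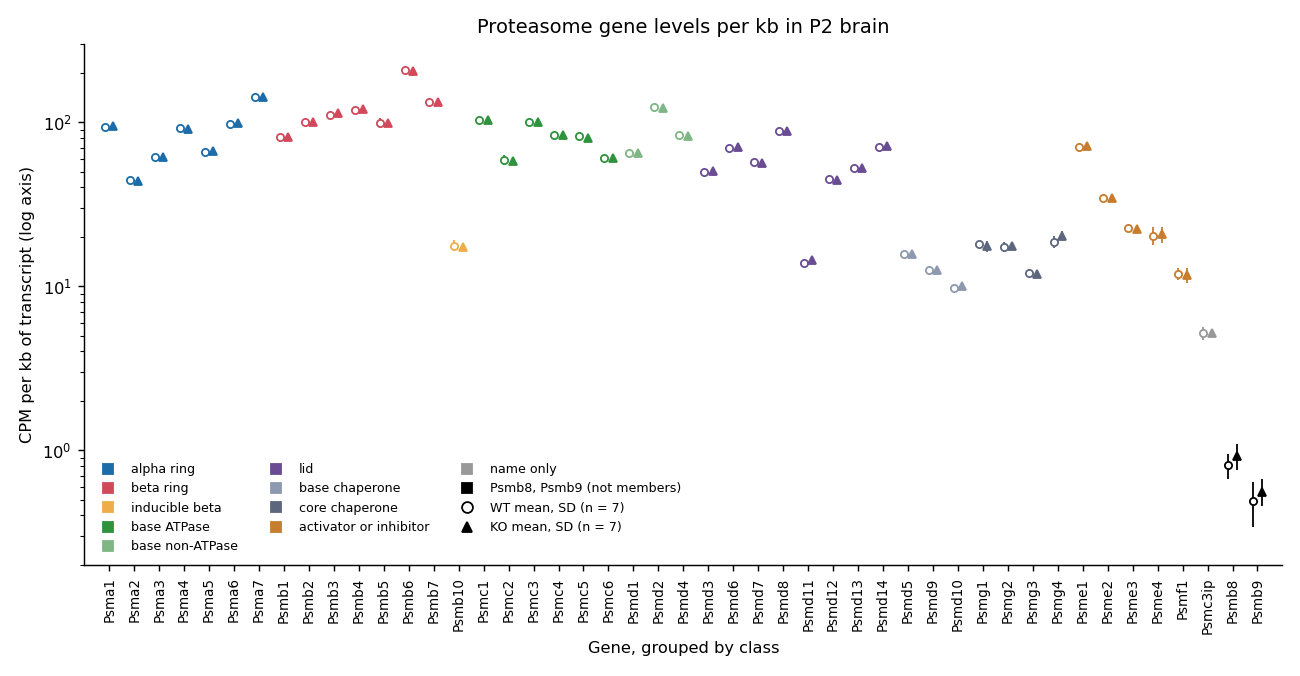
Level of each member, and of Psmb8 and Psmb9 for comparison, as CPM per kb of transcript on a log axis. Open circles are the means of 7 WT and triangles the means of 7 Capn15 KO libraries, bars are SD, and colours mark the class. WT and KO symbols lie side by side for every gene, with alpha and beta ring genes between 44.3 and 206 CPM per kb and chaperones between 9.92 and 19.5.

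The beta ring genes were the highest class, with a median of 111.8 CPM per kb over 7 genes. Psmb6, which encodes the caspase-like site, was the highest of all members at 206 ± 9.40 CPM per kb (SD, n = 14). The other catalytic genes were Psmb7, which encodes the trypsin-like site, at 133 ± 3.44 CPM per kb (SD, n = 14) and Psmb5, which encodes the chymotrypsin-like site, at 98.9 ± 5.54 CPM per kb (SD, n = 14). The lowest beta ring gene, the structural Psmb1, was at 81.1 ± 2.61 CPM per kb (SD, n = 14). Thus catalytic and structural beta genes were interspersed in level rather than separated.

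The alpha ring genes ranged from Psma2 at 44.3 ± 1.53 to Psma7 at 143 ± 5.05 CPM per kb (SD, n = 14), with a median of 91.4 CPM per kb over 7 genes. The 6 ATPases of the base had a 1.77-fold range, between Psmc2 at 58.3 ± 3.0 and Psmc1 at 103 ± 2.69 CPM per kb (SD, n = 14). Among the other base subunits, Psmd2, one of the large scaffold subunits, was at 123 ± 3.26 and its partner scaffold Psmd1 at 65.3 ± 1.84 CPM per kb (SD, n = 14). The ubiquitin receptor Psmd4 was at 83.0 ± 3.19 CPM per kb (SD, n = 14).

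The 8 lid genes were lower, with a median of 54.6 CPM per kb, from Psmd8 at 88.2 ± 2.0 down to Psmd11 at 14.1 ± 0.681 CPM per kb (SD, n = 14). Psmd14, which encodes the deubiquitinating enzyme of the lid, was at 71.3 ± 2.38 CPM per kb (SD, n = 14). Psmd11 stood well under the next of these 8 genes, Psmd12, at 44.9 ± 1.37 CPM per kb (SD, n = 14). The processed transcript A730017L22Rik is 97.9% identical to Psmd11 over 1503 bases and held 7298 counts over the 14 libraries beside the 26751 counts of Psmd11, so the level of Psmd11 is uncertain where reads could have been divided between the genes.

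Genes whose products build or regulate the particle all lay below the median of its subunits. The base chaperones Psmd5, Psmd9 and Psmd10 lay between 9.92 and 15.7 CPM per kb, and the core chaperones Psmg1 to Psmg4 between 12 and 19.5. Psme1, the alpha subunit of the 11S activator, was at 71 ± 3.34 CPM per kb, while Psme2, its beta subunit, was at 34.5 ± 1.57 (SD, n = 14). For Psme2 the copy Psme2b is 99.4% identical over 794 bases and has no row in the counts. The nuclear activator Psme3 was at 22.6 ± 0.629, the activator Psme4 (PA200) at 20.5 ± 2.39 and the inhibitor Psmf1 (PI31) at 11.8 ± 1.07 CPM per kb (SD, n = 14). Psmc3ip was the lowest member, at 5.18 ± 0.375 CPM per kb (SD, n = 14).

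Constitutive catalytic subunits are exchanged for Psmb8, Psmb9 and Psmb10 in the immunoproteasome, the form induced by interferon. In these brains Psmb10 was at 17.6 ± 1.07 CPM per kb (SD, n = 14), 7.60-fold below Psmb7, whose place it takes. Psmb8 was at 0.865 ± 0.159 CPM per kb (SD, n = 14), 114-fold below Psmb5, and Psmb9 at 0.524 ± 0.129 (SD, n = 14), 393-fold below Psmb6. The inducible genes were thus far apart from one another, with Psmb10 20.3-fold above Psmb8 and 33.5-fold above Psmb9. Psmb8 had 44 to 97 counts per library and Psmb9 13 to 56, all above the floor of 3 counts.

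These levels depend on the length assigned to each gene. Divided by the union of all annotated exons instead, the median of the 26S subunits was 42.4 CPM per kb, and 94.3% of genes lay below it. The 3 highest members were then Psmb5 (98.9 CPM per kb), Psmd2 (90.3) and Psmb6 (87.7), whereas Psma7 moved from rank 2 to rank 16. Psmd11 remained the lowest 26S subunit at 6.30 CPM per kb. The range within the ATPases then widened from 1.77-fold to 4.10-fold, while that within the alpha ring was 2.38-fold and that within the beta ring 3.19-fold. Psmb10 was then 3.35-fold below Psmb7, Psmb8 237-fold below Psmb5 and Psmb9 453-fold below Psmb6.

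Between genotypes, no proteasome gene passed the test. Of the 45 members, 0 passed an adjusted p under 0.05 when all 17927 genes were fitted with edgeR's quasi-likelihood test, where 1 gene or 0.00558% passed. Few genes were called in this comparison, and the deleted gene Capn15 itself, with a log2 fold change of -0.81 (SE 0.12), had an adjusted p of 0.0747 in the same test. Without litter F 7 of all genes passed, and with the DESeq2 test 17, and none of these was a member. At an unadjusted p under 0.05 there was 1 member, Psmg4, which is 2.22% of the members against a background of 5.14% of all genes, and with DESeq2 there were 0. In no member did the WT and Capn15 KO libraries separate without overlap, which 1 gene or 0.00558% of all genes did. The log2 fold change, Capn15 KO against WT, was above 0 in 17 members and below 0 in 28, with a median of -0.0033, and over all genes the median was 0.0015, with 51.4% above 0.

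**Figure D2:**
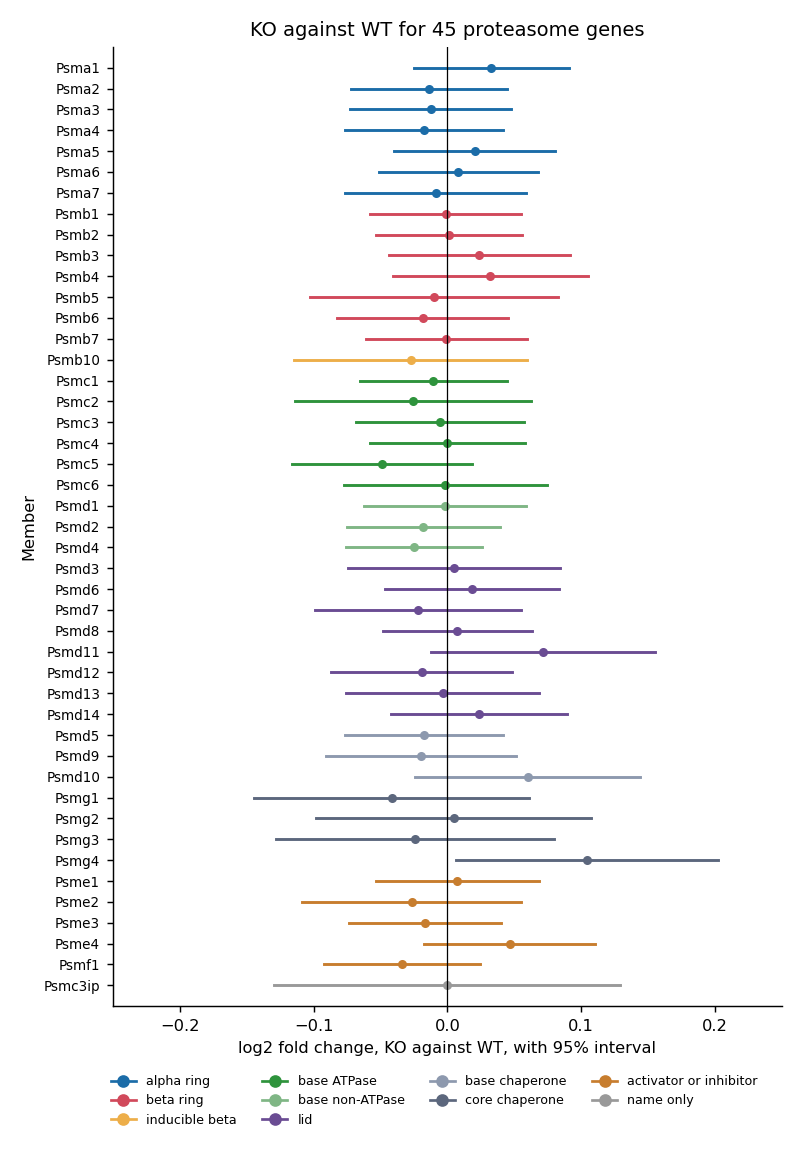
Log2 fold change of Capn15 KO against WT for the 45 members, ordered by class, with 95% intervals from edgeR's quasi-likelihood fit on 14 libraries (genotype, sex and litter). Points lie between -0.05 (Psmc5) and 0.10 (Psmg4), and every interval but that of Psmg4 includes 0.

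In the fit of all 14 libraries, the interval of each member taken alone leaves only a small difference possible. The intervals are not adjusted for the 45 members, and the estimates they surround depended on the litters in the fit. Psmd11 was at 0.0936 without litter F and 0.0271 without litter B, and Psmc5 at -0.0274 and -0.0821. The 95% interval of the log2 fold change lay within -0.1 to 0.1 for 31 of the 45 members, within -0.15 to 0.15 for 43 and within 0.25 of 0 on either side for all 45. For the 31 subunits of the 26S particle, the intervals reached no further than -0.12 and 0.16, that is, a difference of -7.73% to 11.4% in the Capn15 KO, and 26 of the 31 lay within -0.1 to 0.1. The median absolute log2 fold change was 0.018 over the members, 0.036 over all genes and 0.025 over the 11206 genes in the same range of level. That range runs from the lowest member, Psmc3ip at 6.69 CPM, to the highest, Psmd2 at 365 CPM. Members together took 0.450% ± 0.0065 of the counts in WT and 0.450% ± 0.0136 in Capn15 KO libraries (SD, n = 7 each). The WT shares ran from 0.440% to 0.457% and the Capn15 KO shares from 0.432% to 0.473%, so the ranges overlapped and the Capn15 KO range was the wider.

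By class, the median log2 fold change was -0.01 for the 7 alpha ring genes, -0.0009 for the 7 beta ring genes, -0.01 for the 6 ATPases, -0.02 for the 3 other base subunits and 0.01 for the 8 lid genes. Neither the alpha ring (-0.02 to 0.03) nor the beta ring (-0.02 to 0.03) held a gene with an unadjusted p under 0.05. The ATPases ran from -0.05 to 0.0001 and the lid from -0.02 to 0.07. Among the 5 activators and inhibitors the range was -0.03 to 0.05, among the 3 base chaperones -0.02 to 0.06 and among the 4 core chaperones -0.04 to 0.10.

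Psmg4 encodes a core chaperone that pairs with Psmg3 to help order the alpha ring. It was at 8.86, 10.3 and 11.2 CPM (lowest, median and highest of 7) in WT and at 10.5, 11.1 and 12.5 CPM in Capn15 KO libraries. The groups overlapped, although the Capn15 KO library was the higher in 7 of 7 same-numbered pairs. The log2 fold change was 0.10 (SE 0.05), with an unadjusted p of 0.0382 and an adjusted p of 0.953 in edgeR's quasi-likelihood test. An exact two-sided permutation test over all regroupings of the 14 libraries gave p = 0.0460, and the exact sign-flip test over the 7 pairs gave p = 0.0156, the smallest it can give. Pairs 2 and 3 both come from litter B, so the 7 pairs are not independent. Every pair but that of litter F joined a male and a female, and neither test took sex into account. Neither p is adjusted for the 45 members. Its partner Psmg3 overlaps Gm26938 on the same strand and was at 9.81, 10.7 and 11.5 CPM in WT and at 9.88, 10.5 and 11.3 CPM in Capn15 KO libraries.

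Psmd11, the lid gene with the uncertain level, was at 37.3, 39.3 and 41.1 CPM in WT and at 38.7, 40.9 and 44.8 CPM in Capn15 KO libraries. Its log2 fold change was 0.07 (SE 0.04), with an unadjusted p of 0.0883 and an adjusted p of 1.0 in edgeR's quasi-likelihood test, and it was higher in the KO in 5 of 7 pairs. The groups overlapped between 38.7 and 41.1 CPM. The log2 fold change was 0.0364 without either library of litter D and 0.0271 without litter B, but 0.0936 without litter F. Psmc5, an ATPase of the base, was at 104.9, 107 and 114 CPM in WT and at 102, 103 and 113 CPM in Capn15 KO libraries, with a log2 fold change of -0.05 (SE 0.03). The X-linked base chaperone Psmd10, also known as gankyrin, was at 13, 14 and 14.6 CPM in WT and at 13.9, 14.3 and 15.4 CPM in Capn15 KO libraries, with a log2 fold change of 0.06 (SE 0.04).

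The rest of the 12 members with the smallest unadjusted p had smaller differences. Psme4, Psma1, Psmb4, Psmd14 and Psmb3 had log2 fold changes between 0.02 and 0.05, and Psmf1, Psmd4 and Psmg1 between -0.04 and -0.03. Their SE lay between 0.02 and 0.05, and each adjusted p from edgeR's quasi-likelihood test was 1.0. For Psme1 and Psmd14 the sign depended on the libraries in the fit. Psme1 went from 0.01 to -0.00802 without litter F, and Psmd14 from 0.02 to -0.0020 without litter B.

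Of the interferon-inducible members, Psmb10 was at 20.6, 23.4 and 25.4 CPM in WT and at 20.9, 23.0 and 23.9 CPM in Capn15 KO libraries. Its log2 fold change was -0.03 (SE 0.04, 95% interval -0.11 to 0.06), that of Psme1 was 0.01 (SE 0.03, -0.05 to 0.07) and that of Psme2 was -0.03 (SE 0.04, -0.11 to 0.06). For the excluded Psmb8 and Psmb9 the log2 fold changes were 0.17 (SE 0.15) and 0.16 (SE 0.20), and the groups overlapped for both. The intervals of Psmb8, -0.16 to 0.50, and of Psmb9, -0.28 to 0.59, are much wider at these low counts than those of Psmb10.

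No marker of another cell type passed the adjusted threshold between genotypes. In the choroid plexus list 3 of 4 markers (Ttr, Kl, Folr1 and Clic6) were lower in the Capn15 KO at an unadjusted p under 0.05. Their sum was 722 to 955 CPM in WT and 591 to 826 CPM in Capn15 KO libraries. Of the 4 meningeal markers 2 were lower at the same level, although the sums of the Capn15 KO libraries, 105 to 136 CPM, lay within those of the WT libraries, 88.9 to 155 CPM. The neuronal and endothelial lists each held 1 marker that was higher in the KO at an unadjusted p under 0.05. In the same way 2 of the 8 genes of the interferon response, a list that includes Psmb8 and Psmb9, were higher, with sums of 52.9 to 66.8 CPM in WT and 62.5 to 79.6 CPM in Capn15 KO libraries. Their part in the values above was not tested.

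**Figure D3:**
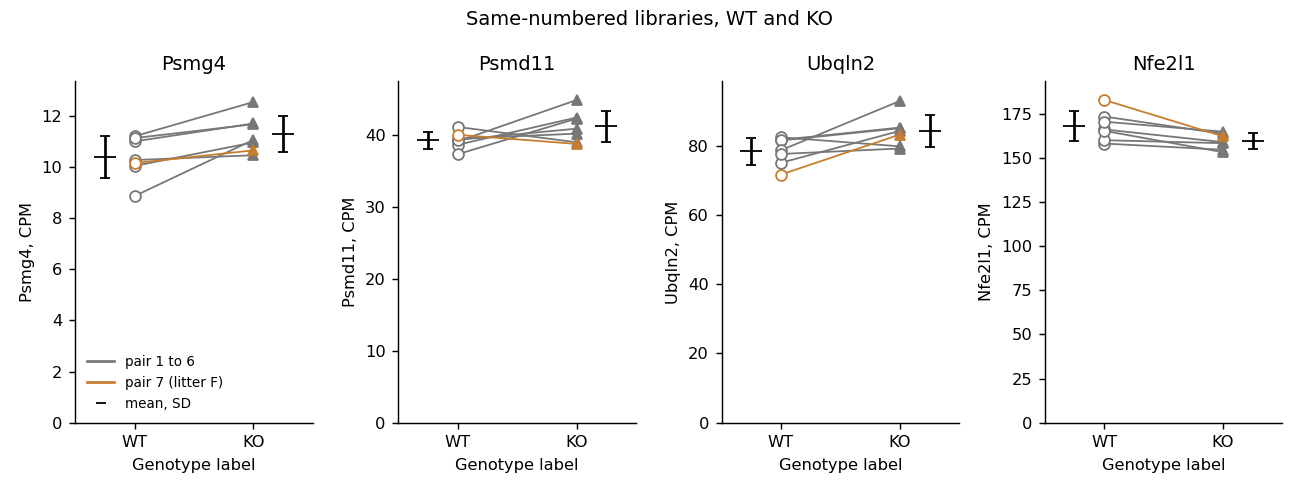
CPM in the 7 pairs of same-numbered WT (open circles) and Capn15 KO (triangles) libraries for the members Psmg4 and Psmd11 and for Ubqln2 and Nfe2l1, with axes from 0; black bars are group means with SD (n = 7). The groups overlap in every panel, Psmg4 is higher in the KO in 7 of 7 pairs and Nfe2l1 in 0 of 7, and the pair of litter F is drawn in orange.

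A list of 28 genes that act with the proteasome was set beside the members, which held the subunits Sem1 and Adrm1, the maturation factor Pomp, the deubiquitinating enzymes Usp14 and Uchl5, ubiquitin ligases, shuttle factors, the Vcp segregase with its cofactors, ubiquitin genes, E1 enzymes and the transcription factor Nfe2l1 with its processing enzymes. Sem1 and Adrm1 lie outside the name rule and are not among the 31 subunits of the 26S particle counted above. None of the 28 passed the adjusted threshold between genotypes, and 2 (7.14%) had an unadjusted p under 0.05, near the 5.14% of all genes. The log2 fold change was above 0 in 17 and below 0 in 11, with a median of 0.01.

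Ubqln2, a shuttle factor that carries ubiquitinated proteins to the proteasome, was at 71.6, 78.7 and 82.4 CPM in WT and at 79.2, 84.2 and 92.9 CPM in Capn15 KO libraries. It was higher in the KO in 6 of 7 pairs, with a log2 fold change of 0.12 (SE 0.03), an unadjusted p of 0.00336 and an adjusted p of 0.57 in edgeR's quasi-likelihood test. Nfe2l1, also called Nrf1, is the factor that raises transcription of proteasome genes when proteasome activity falls. It was at 158, 166 and 183 CPM in WT and at 153, 159 and 165 CPM in Capn15 KO libraries, lower in the KO in 7 of 7 pairs, with a log2 fold change of -0.08 (SE 0.03), an unadjusted p of 0.00471 and an adjusted p of 0.631 in the same test. Both groups of libraries overlapped for both genes. The next 3 by unadjusted p were Ube3a (log2 fold change 0.03, SE 0.02), Adrm1 (0.05, SE 0.04) and Uba1 (0.04, SE 0.03), each with an adjusted p of 1.0 in edgeR's quasi-likelihood test. With 1 library left out, Adrm1 ran from 0.0176 to 0.117.

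Across the 14 brains the members varied little. The coefficient of variation of CPM had a median of 3.84% over the members and 3.34% over the 26S subunits, between 2.27% for Psmd8 and 5.60% for Psmb5, against 9.32% over all genes and 6.69% over the genes in the same range of level. That range reaches down to 6.69 CPM, under the 40.2 CPM of the lowest 26S subunit, Psmd11. Level is therefore matched only loosely in this comparison. The biological coefficient of variation, which edgeR estimates after genotype, sex and litter are taken into account, had a median of 4.11% over the members, 5.41% over all genes and 4.47% over genes in the same range of level. The members with the largest coefficient of variation over the brains were Psme4 at 11.6% and Psmf1 at 9.09%, followed by Psmg4 at 8.15%.

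In some libraries nearly all 26S subunits lay on the same side of their mean, while in others they were divided. Each subunit's log2 CPM was expressed as its deviation from the mean of the 14 libraries. In KO replicate 2 of litter B, 30 of 31 subunits lay above their mean, with a median deviation of 0.07, and in KO replicate 6 of litter E 0 of 31 did, with a median of -0.05. In KO replicate 7 of litter F, 3 of 31 lay above, with a median of -0.05. In KO replicates 1, 3, 4 and 5, the numbers above were 18, 23, 17 and 12 of 31, with medians between -0.0099 and 0.04. In WT replicates 1 to 7, they were 11, 8, 15, 20, 4, 23 and 18 of 31, with medians from -0.04 in WT replicate 5 to 0.03 in WT replicate 6.

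In KO replicate 2, all 14 core genes and 16 of 17 cap genes lay above their mean. In KO replicate 6, 0 of 14 and 0 of 17 did. These libraries were picked by their counts over all 31 subunits, so core and cap could hardly differ there. In KO replicate 7, 2 of 14 core and 1 of 17 cap genes lay above, and in WT replicate 5, 0 and 4. Core and cap differed more in WT replicate 3, with 10 of 14 and 5 of 17, and in WT replicate 7, with 6 of 14 and 12 of 17. Of the 11206 genes in the same range of level, 51.9% lay above their mean in KO replicate 2 and 51.3% in KO replicate 6. In KO replicates 2 and 6 the numbers above were 30 and 0 of 31 also with the size factors of DESeq2 and with no TMM factors. KO replicate 6 was the deepest library, with 70910163 counts, KO replicate 7 among the shallowest, with 37885377, and KO replicate 2 had 52159441. The part of depth, litter or sex in these deviations was not tested.

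**Figure D4:**
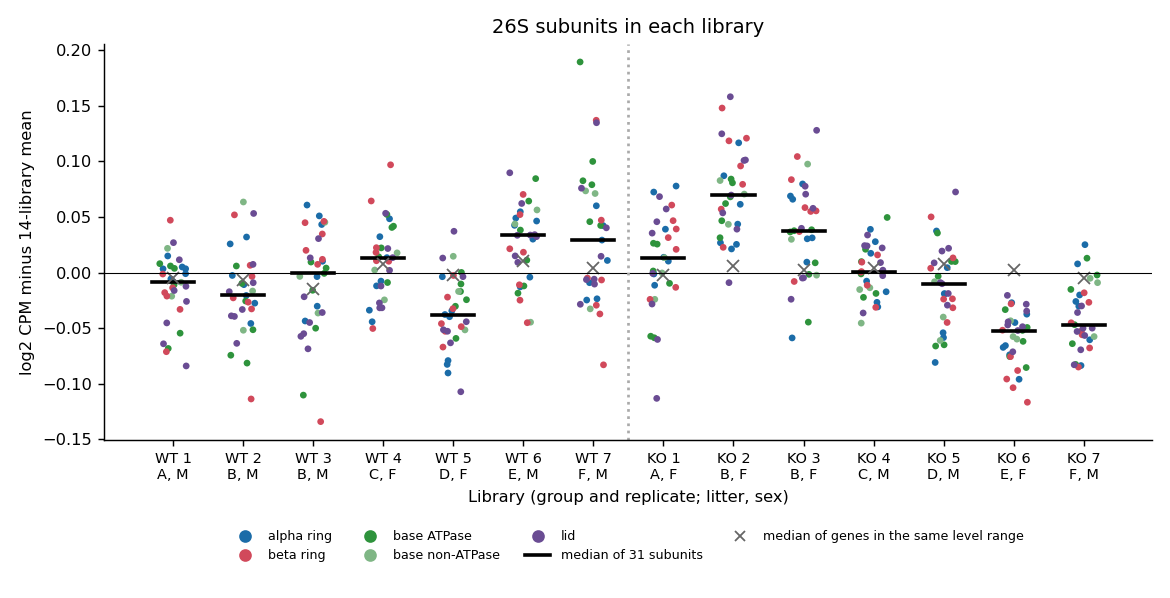
Deviation of each of the 31 subunits of the 26S proteasome from its mean log2 CPM over 14 libraries, by library, with litter and sex below. Colours mark the class, black lines the median of the subunits and crosses the median of 11206 genes in the same range of level. Nearly all subunits lie above 0 in KO replicate 2 and below 0 in KO replicates 6 and 7, while the crosses stay close to 0.

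The promoters of the members were searched for 2 motifs known from this gene family, in windows from 250 bases before to 50 bases after the start site (RefSeq, GRCm38.p6). The first was the core of the antioxidant response element, TGACNNNGC, which Nfe2l1 binds, and the second was the CCAAT box, each on both strands. Windows were found for 38 of the 45 members, 41 in all. The antioxidant core was in 6 of the 41 (14.6%) and in 12.4% of all 32851 promoter windows, and the CCAAT box in 13 (31.7%) and 37.4%, so the shares were near the background. The 6 genes with the antioxidant core were Psmb5, Psmb6, Psmc6, Psmd12, Psmd9 and Psme4. The following 60-base stretches before the start site show it in 1 gene each of the beta ring, the ATPases and the lid, printed 5′ to 3′ on the + strand with the motif in capitals. For Psmb6 the stretch is chr11:70525297-70525356, for Psmc6 chr14:45329574-45329633 and for Psmd12 chr11:107479278-107479337.
Psmb6: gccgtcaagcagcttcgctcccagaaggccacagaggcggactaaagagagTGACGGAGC
Psmc6: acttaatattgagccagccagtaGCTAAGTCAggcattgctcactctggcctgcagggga
Psmd12: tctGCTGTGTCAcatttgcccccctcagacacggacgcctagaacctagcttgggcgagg
In Psmb6 the motif lies on the strand of the gene and begins at -9 from the start site. In Psmc6 and Psmd12 it lies on the other strand and begins at -227 and -247. Such a match describes the letters only.

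Between litters 2 members changed. Psme4 and Psmf1 passed an adjusted p under 0.05 in edgeR's quasi-likelihood test of the litter terms, which is 4.44% of the members, while 29.6% of all genes and 38.4% of the 11206 genes in the same range of level passed. At an unadjusted p under 0.05 there were 4 members, Psme4, Psmf1, Psmd4 and Psme1 (8.89%), against 41.0% of all genes. Of the 31 subunits of the 26S particle 0 passed the adjusted threshold, and 1, Psmd4, had an unadjusted p under 0.05 (adjusted p = 0.0994 in the same edgeR test). Far fewer calls were made without litter B. In the 10 libraries of the other litters, 1.09% of all genes and 0 of the 45 members passed.

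Psme4 encodes PA200, an activator that opens the core without ATP. It was at 149.5 to 159 CPM in the 4 libraries of litter B and at 114 to 144.5 CPM in the 10 libraries of the other litters. Litter B lay above every other library, of either genotype. The lowest litter mean was that of litter D, at 116 CPM. The adjusted p for litter was 0.000125 in edgeR's quasi-likelihood test. Psmf1 encodes PI31, first described as an inhibitor of the core. It was at 50.1 to 52.4 CPM in litter B and at 41.0 to 46.0 CPM elsewhere, again with no overlap, and had an adjusted p of 0.000518 in the same test. Psmd4, the ubiquitin receptor, was at 114 to 118 CPM in litter B and at 106 to 112 CPM elsewhere, and Psme1 at 81.1 to 86.1 and 71.7 to 80.6 CPM. Litter B was thus above every other library for these genes too, although neither passed the adjusted threshold, with an adjusted p of 0.11 for Psme1 in the same edgeR test. The fifth by unadjusted p, Psmg4, was at 11 to 12.5 CPM in litter B and at 8.86 to 11.7 CPM elsewhere, with an overlap and an adjusted p of 0.133 in that test. Once litter had been fitted, the biological coefficient of variation was 4.12% for Psme4 and 3.31% for Psmf1.

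Markers of several cell types also set litter B apart. The sum of the 5 markers of astrocytes and radial glia was 1257 to 1468 CPM in litter B and 1494 to 1780 CPM elsewhere, that of the 5 markers of the oligodendrocyte lineage 299.8 to 334 CPM and 349 to 525 CPM, and that of the 4 microglial markers 72.8 to 85.9 CPM and 87.7 to 102 CPM. These sums did not overlap, while those of the 7 neuronal markers did, at 7124 to 7274 CPM in litter B and 7076 to 7492 CPM elsewhere. Single neuronal markers still differed, as 5 of the 7 passed the adjusted threshold between litters, against 2 of the 4 microglial markers. The sum of the 5 red blood cell markers ran higher in litter B, at 196.7 to 322 CPM. It reached at most 199.5 CPM elsewhere, a small overlap, and all 5 markers passed that threshold. Sums of the endothelial, choroid plexus and meningeal lists overlapped too. Markers of dividing cells (Mki67, Top2a, Cdk1 and Ccnb1) summed to 156 to 178 CPM in litter B and 171 to 250 CPM elsewhere. Those sums overlapped, and all 4 markers passed the adjusted threshold between litters. The part of these cells in the litter difference of Psme4 and Psmf1 was not tested. Both sexes and both genotypes were in litter B, but there its WT brains were male and its KO brains female.

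**Figure D5:**
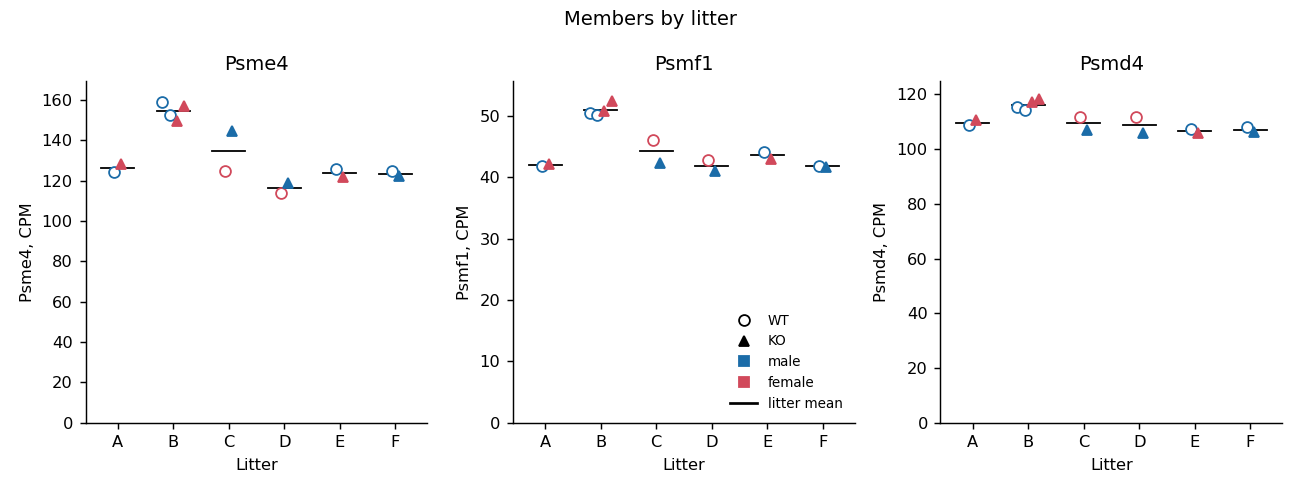
CPM of Psme4, Psmf1 and the 26S subunit Psmd4 in each library by litter, with axes from 0; circles are WT, triangles Capn15 KO, blue male and red female, and lines are litter means. The 4 libraries of litter B lie above the other 10 in all panels, for Psmd4 by a small margin (114 to 118 against 106 to 112 CPM).

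Among the genes that act with the proteasome, 7 of 28 (25%) passed the adjusted threshold between litters in the same test, against the 29.6% of all genes. They include Uba1 and Uba6, the E1 enzymes that activate ubiquitin, the shuttle factor Ubqln4, and Ufd1 and Nploc4, which are cofactors of Vcp.

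Between sexes no member changed. In edgeR's quasi-likelihood test 0 of 45 passed, where 0.0669% of all genes did, and 1 member, Psme4, had an unadjusted p under 0.05 (2.22%, against 5.04% of all genes). Psme4 was at 119, 125 and 159 CPM (lowest, median and highest) in 8 male and at 114, 126.5 and 157 CPM in 6 female libraries. Its log2 fold change, female against male, was -0.07 (SE 0.03), with an adjusted p of 0.927 in edgeR's quasi-likelihood test. With 1 library left out it ran from -0.0944 to -0.0285, and it was -0.0285 without either library of litter C. The ranges of the sexes were nearly the same. Psme2 came next, at 30.8, 32.2 and 34.3 CPM in males and 32.6, 33.9 and 36.0 CPM in females. Its log2 fold change was 0.08 (SE 0.04), and 0.0282 without litter B. The log2 fold changes of Psmd4, Psmf1 and Psmd9, the rest of the 5 with the smallest unadjusted p, were 0.04 (SE 0.03), 0.05 (SE 0.03) and 0.06 (SE 0.04). With 1 library left out, Psmd9 ran from 0.0109 to 0.0990, Psmd4 from 0.0388 to 0.0503 and Psmf1 from 0.0321 to 0.0576. Psmd10, the member on the X chromosome, was at 13 to 15.4 CPM in males and 13.9 to 14.5 CPM in females, with a log2 fold change of -0.03 (SE 0.04).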

How the data were processed

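RNA-SEQ after depletion of ribosomal RNA was used on brains from 14 mice at P2, 7 of each genotype. The authors trimmed reads with Trimmomatic, aligned them to GRCm38 with STAR and deposited raw counts per gene, not normalized and filtered by a rule not given in the sources used here. The methods name HTSeq-count and the labels featureCounts, and they also differ on kit and sequencer. The strand setting and annotation release of the counting are not given in the sources used here. Exons of 10 members overlap a gene on the other strand and those of 3 a gene on the same strand, and 12 members have another gene at 95% identity or more over at least 20% of the transcript (blastn 2.17.0), so their counts are less certain.

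The labels gave the groups, while the deposited column names gave each brain's litter and sex. Counts of all 17927 genes were fitted in R 4.3.3 with edgeR 4.0.16 (quasi-likelihood test, TMM factors of 0.993 to 1.01, terms for genotype, sex and litter) and Benjamini-Hochberg adjustment over all genes, called at 0.05. Log2 CPM used a prior count of 2, and permutation and sign-flip tests were exact and two-sided. In 3 simulated sets for the genotype comparison, each of 17927 genes, the test recovered 276 of 300 genes changed by 0.5 on the log2 scale and 300 of 300 changed by 1. The changed genes were drawn only from those above a minimum mean count. Both sizes exceed the largest log2 fold change of a member, 0.1045, and recovery at such small sizes was not tested. The simulated counts held no differences between litters or sexes, so this recovery does not carry over directly to these brains. In the real data Capn15, with a log2 fold change of -0.81, was not called. Lengths and positions came from GENCODE M21 and promoters from RefSeq, with DESeq2 1.42.0, Python 3.11.15 and matplotlib 3.10.9 also used. The 95% intervals of the log2 fold changes come from the fit of all libraries and take in the spread between brains. The floor of 3 counts covers counting error in a single library only, and PCR copies are not independent molecules.

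Statistics are given for the 12 members with the smallest unadjusted p between genotypes and for Psmb10, Psme1 and Psme2, for the 5 with the smallest p between sexes and between litters, and for the 5 such related genes. Members, lists and markers were chosen with earlier results of these data known. Same-numbered libraries share a litter by their column names. The correlations of their deviations from the group means, over 15227 genes, lay between -0.467 and 0.443. Alternatives were the size factors of DESeq2, a low-count filter, the DESeq2 test, genotype alone, a replicate block, leaving out litter F and leaving out each library. Leaving out litter B, the union of exons as length and the other scalings of the library deviations were added after the data had been seen. Protein sequences were not used here. The values of 1 related gene, which stays in every fit and count, are not reported here.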

Additional observations from a re-analysis of the deposited data

Results flagged for a closer look

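In 92 groups of 7 libraries, 3 values stood apart from the rest of their group, where chance alone gives about 4.6. Psme3 was highest in WT replicate 6, at a log2 CPM of 5.996 with the next at 5.93 (gap over range 0.638). Psmd14 was highest in the same library, at 6.84 with the next at 6.77 (0.666). Psma7 was lowest in WT replicate 5, at 6.93 with the next at 7.01 (0.573).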

How the results depend on the processing

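Calls between genotypes and between sexes stayed at 0 of the 45 members, and calls between genotypes at 0 of the 28 related genes, under every alternative run. The filter on low counts removed no gene. The number of members with an unadjusted p under 0.05 between genotypes, 1 in the test as reported, was 0 with DESeq2, 0 with genotype alone and 2 without litter B, and it ran from 0 to 2 with 1 library left out. The number of members called between litters, 2, fell to 0 without litter B, which leaves 10 libraries, and was unaltered otherwise. The log2 fold change between genotypes of Psme1 reversed from 0.01 to -0.00802 without litter F and ran from -0.0110 to 0.0229 with 1 library left out, Psmd14 reversed from 0.02 to -0.0020 without litter B, and Uba1 ran from -0.00158 to 0.0852. Of the 25 log2 fold changes recomputed, none of which was called between genotypes or sexes, 17 moved by more than 1.5 times when 1 library or litter was left out. The number of all genes called between genotypes, 1, was 17 with the DESeq2 test, 7 without litter F and 0 with the replicate block or without litter B. With the replicate block, which fits the pairing of same-numbered libraries, the count of members called was 0, as without it, and the block changed no other call on the members or the related genes. Using the union of exons lowered the CPM per kb of 42 members by more than 1 SD. The lowest count of a member in a library was 233. The cause of the litter B difference was not tested.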
